A study of Homo sapiens with 3 samples.

Results

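Cells in G2 and mitosis were examined in 3 single-cell RNA libraries of mixed cultures of Caco-2, an intestinal line that forms absorptive, enterocyte-like layers, and HT29, a line with goblet-like, mucus-producing derivatives, both from human colorectal carcinoma. In each library, the 10% of kept cells with the highest share of unique molecular identifiers (UMIs, one per captured RNA molecule) on TOP2A, MKI67, CENPF, CCNB1, CDC20, PLK1, TPX2 and UBE2C together were taken and are called G2/M cells here. They were 1555 of 15560 kept cells, of which 509 were in control 1, 530 in control 2 and 516 in the LPS library. Both lines were seeded on polyester inserts, cultured for 21 days and harvested by trypsin on day 23. The cells were thawed before capture, and dead cells were removed from samples of low viability. The 2 controls were untreated, and the LPS culture was given 1 ng/ml of Escherichia coli O111:B4 lipopolysaccharide on the apical side on day 22 for 24 h. The labels give separate replicate numbers for the controls but no culture dates, so p-values speak for these libraries only. Where cells of the same library were compared, they measure the spread of the within-library difference over the libraries. For LPS they rest on the spread between the 2 controls. RNA was captured with the 10x Genomics 3′ chemistry, and cells with at least 1500 UMIs, at least 700 genes and at most 20% of UMIs on mitochondrial genes were kept. The kept cells held 33153151 UMIs in control 1, 26753359 in control 2 and 22421217 in the LPS library. Between 9 and 11 barcodes recurred in each pair of libraries, and none of them had the same counts in both. Scrublet marked 0, 0 and 1 cells as doublets at its automatic threshold, so no cell was removed for it, and leaving out those with the highest scores was one of the alternatives.

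A dividing cell copies its DNA in S phase, prepares in G2, and then condenses its chromosomes, attaches them to a microtubule spindle and separates them in mitosis before the daughter cells are cut apart. CDK1 bound to cyclin B drives the entry into mitosis, and the anaphase promoting complex ends it by marking cyclin B and securin for destruction. Much of the RNA for these proteins is made in G2 and mitosis only, under the DREAM and MuvB complexes, which bind promoters at an element with the letters TTTGAA, often with CCAAT boxes bound by NF-Y further from the start. In the intestine, dividing cells sit in the crypt and stop dividing as they become absorptive or secretory cells, and Caco-2 cultures turn towards absorptive cells after they become confluent.

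The letters of these elements were searched on both strands in the 250 bases before each gene's start in the RefSeq promoters of GRCh38.p14. Of the 131 genes in 7 lists of G2 and mitosis genes that do not contain the 8 genes of the rule, 116 had a promoter, and 36.2% of these held TTTGAA, against 8.18% of the 10090 promoters of genes tested in Caco-2-line cells and 13.6% of all 27305 promoters. CCAAT stood in 63.8% of the 116 promoters, 35.2% of those tested and 33.0% of all, and both TTTGAA and CCAAT in 30.2%, 3.30% and 4.85%. Of the 6 promoters found for the rule genes, 4 held TTTGAA and 6 held CCAAT. The DNA replication genes, with the 8 genes of the S-phase rule given below, held TTTGAA in 4.08% and CCAAT in 57.1% of their 49 promoters, while TTTGGCGC, a form of the E2F site, stood in 14.3% of them, in 3.45% of the G2 and mitosis promoters and in 0.902% of those tested. Enterocyte genes held TTTGAA in 3 of 16 promoters (18.8%), and within the G2 and mitosis genes the share ran from 2 of 17 promoters (11.8%) for the anaphase promoting complex to 6 of 12 for CDK1 with the cyclins and for cytokinesis. The promoters below belong to genes that the results turn on, and give the 100 bases before the RefSeq start, 5′ to 3′ along the gene, with TTTGAA and CCAAT on either strand in capitals (TTCAAA and ATTGG are their reverse forms, and CCAATTGG holds CCAAT on both strands). CCNB2, PLK1, CDC20, HMMR and PIF1 hold both elements, whereas CENPA has TTTGAA alone and CCNB1 and NUSAP1 have CCAAT but no TTTGAA in this window.
CCNB2 (GRCh38.p14 chr15:59105046-59105145, plus strand): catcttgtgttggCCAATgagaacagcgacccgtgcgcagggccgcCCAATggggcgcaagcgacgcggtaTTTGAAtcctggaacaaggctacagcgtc
PLK1 (GRCh38.p14 chr16:23678789-23678888, plus strand): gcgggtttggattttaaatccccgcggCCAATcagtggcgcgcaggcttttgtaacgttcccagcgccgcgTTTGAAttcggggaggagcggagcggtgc
CDC20 (GRCh38.p14 chr1:43358881-43358980, plus strand): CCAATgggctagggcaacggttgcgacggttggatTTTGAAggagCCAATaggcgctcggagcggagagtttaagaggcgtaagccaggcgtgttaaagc
HMMR (GRCh38.p14 chr5:163460532-163460631, plus strand): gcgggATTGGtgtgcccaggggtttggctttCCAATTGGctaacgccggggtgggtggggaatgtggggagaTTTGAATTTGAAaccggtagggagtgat
CENPA (GRCh38.p14 chr2:26785956-26786055, plus strand): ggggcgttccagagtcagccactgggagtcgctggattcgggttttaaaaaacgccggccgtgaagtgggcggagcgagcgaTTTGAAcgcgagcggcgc
PIF1 (GRCh38.p14 chr15:64825648-64825747, minus strand): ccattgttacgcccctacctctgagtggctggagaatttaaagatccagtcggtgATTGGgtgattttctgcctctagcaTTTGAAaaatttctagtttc
CCNB1 (GRCh38.p14 chr5:69167050-69167149, plus strand): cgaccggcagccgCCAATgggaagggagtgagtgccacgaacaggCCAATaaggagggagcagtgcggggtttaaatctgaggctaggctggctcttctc
NUSAP1 (GRCh38.p14 chr15:41332781-41332880, plus strand): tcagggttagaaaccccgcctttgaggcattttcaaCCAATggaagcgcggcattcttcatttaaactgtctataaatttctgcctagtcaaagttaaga
The RefSeq start lies 12087 bases inside the GENCODE span of NUSAP1, 21767 inside that of CENPA, 1233 inside that of PLK1 and 429 inside that of HMMR, since the span reaches to the outermost annotated transcript, and for the others it lies within 21 bases of its outermost start. These matches describe the letters in the window and say nothing of binding in these cells.

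The G2/M cells were chosen by the values that follow, which are therefore a description and were not tested. The share of UMIs on the 8 genes had a median of 0.361%, 0.430% and 0.392% over the G2/M cells of control 1, control 2 and the LPS library, an order of libraries kept throughout. The lowest share inside was 0.2211%, 0.2714% and 0.2524%, and the highest share outside was 0.2210%, 0.2710% and 0.2522%. The limit thus ran through a continuous range of shares, with no gap at 10%. Of all kept cells, 59.1%, 56.7% and 57.1% had no UMI of the 8 genes, and 67.3%, 63.8% and 61.7% of all UMIs on these genes lay in the G2/M cells. Single G2/M cells rested on a median of 31, 28 and 20 such UMIs. At least 6 of the 8 genes were detected in 78.2%, 72.5% and 58.9% of the G2/M cells, and 3 or fewer in 10, 14 and 30 cells. The lower values in the LPS library went with its lower depth.

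TOP2A (ENSG00000131747, chromosome 17 of GRCh38, 40388525 to 40417896), which untangles sister chromatids, and UBE2C (ENSG00000175063, chromosome 20, 45812576 to 45816957), the ubiquitin-conjugating enzyme of the anaphase promoting complex, supplied most of the UMIs behind the rule. TOP2A was at 1133, 1426 and 1415 CPM (UMIs of a gene per 1000000 UMIs summed over the cells of a group) in G2/M cells and at 80.6, 123 and 119 CPM in the other cells. UBE2C was at 1231, 1482 and 1157 CPM against 88.3, 115 and 95.6 CPM. CENPF, a kinetochore protein that accumulates in G2, followed at 685 ± 44.8 CPM (SD, n = 3 libraries), and TPX2, which activates Aurora A on the spindle, at 418 ± 37.1 CPM. CCNB1, encoding cyclin B1, was at 300.1 ± 12.3 CPM and MKI67, which coats mitotic chromosomes, at 280.0 ± 17.2 CPM. PLK1, a mitotic kinase, and CDC20, the activator of the anaphase promoting complex, were the least abundant at 114 ± 14.6 and 121 ± 23.3 CPM. The ratio of G2/M cells to other cells lay between 8.34 for MKI67 and 13.0 for UBE2C on average over the libraries, and the groups did not overlap for any of the 8 genes.

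**Figure D1:**
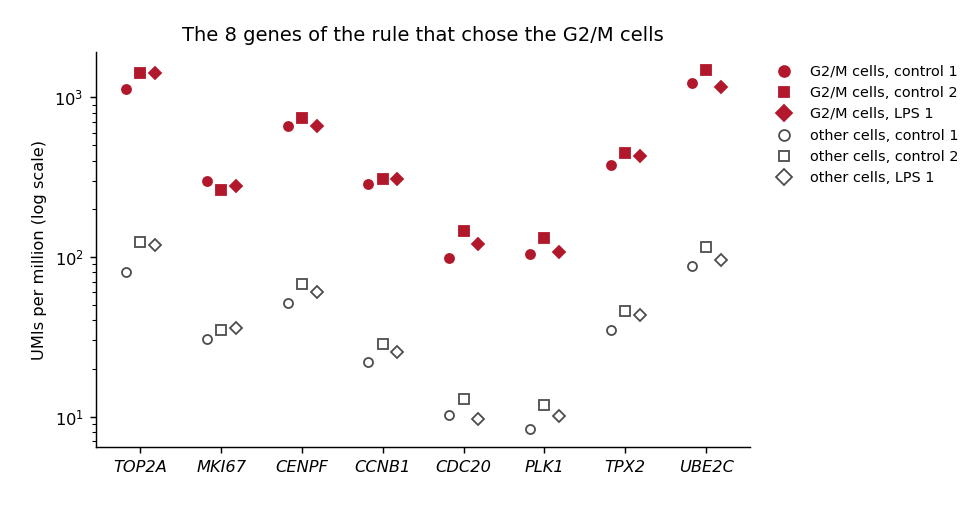
CPM on a log axis for the 8 genes of the rule, with filled symbols for G2/M cells and open symbols for the other cells, and a symbol shape for each of the 3 libraries. All filled symbols lie above all open symbols of the same gene, and TOP2A and UBE2C are the most abundant.

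G2/M cells held more RNA than the other cells. Their median was 8188, 6171 and 4794 UMIs per cell, which was 1.56, 1.53 and 1.34 times that of the other cells. After each cell had been thinned to 1500 UMIs, the median number of genes was 783, 778 and 786.5 in G2/M cells and 735, 743 and 750.0 in the other cells, so the difference in genes per cell was small at equal depth. The median mitochondrial share was 3.72%, 4.05% and 4.38% against 3.62%, 4.05% and 4.45%. The median doublet score was 0.0693, 0.0722 and 0.0784 against 0.0693, 0.0666 and 0.0752. A droplet with several cells and a single large cell cannot be told apart by UMIs alone.

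The question of which line the G2/M cells belonged to was addressed with the genes by which the study separated Caco-2 from HT29 in bulk RNA, with cell cycle genes left out. A mixture fit to the ratio of both gene sets gave 12660 Caco-2-line cells, 2573 HT29-line cells and 327 cells without a call. Nearly all G2/M cells were of the Caco-2 line. Caco-2-line cells made up 1475 of the 1555 G2/M cells, HT29-line cells 65, and 15 had no call. HT29-line cells were 3.18% of the called G2/M cells of control 1 (exact binomial 95% interval 1.83 to 5.11%), 5.71% in control 2 (3.89 to 8.06%) and 3.71% in the LPS library (2.25 to 5.73%). Among the other cells they were 15.7% (14.7 to 16.8%), 21.1% (19.9 to 22.3%) and 18.03% (16.9 to 19.2%). The share was lower in G2/M cells in all 3 libraries, with a difference of -14.1 ± 1.43 percentage points (SD, n = 3). The exact two-sided sign-flip permutation test gave p = 0.25, the smallest value that 3 libraries allow.

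Seen from the lines, 11.4%, 11.9% and 11.7% of the Caco-2-line cells were G2/M cells, against 2.21%, 2.96% and 2.28% of the HT29-line cells, with intervals that did not overlap in any library. At least 1 UMI of the 8 genes was found in 44.3%, 48.9% and 47.3% of the Caco-2-line cells and in 20.7%, 19.2% and 21.3% of the HT29-line cells. Intervals cover counting error only. The median depth of the other cells was similar in both lines, at 5210, 4109 and 3553 UMIs in the Caco-2 line and 5386, 3788 and 3614 UMIs in the HT29 line.

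**Figure D2:**
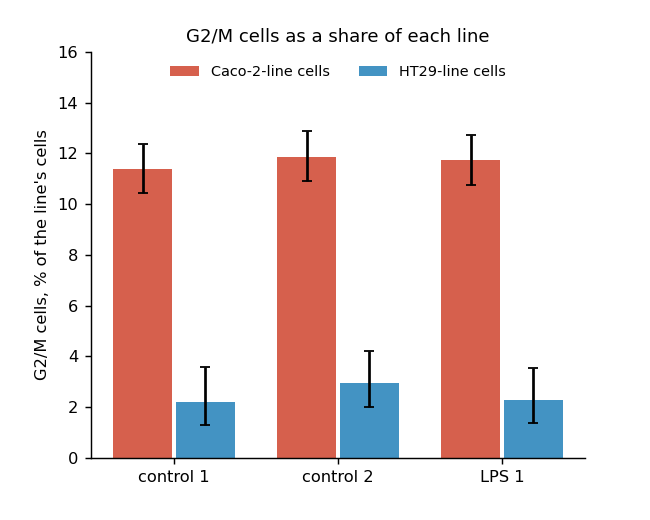
Percentage of the cells of each line that are G2/M cells in the 3 libraries, with exact binomial 95% intervals as error bars. The bars of the Caco-2 line stand between 11.4% and 11.9% and those of the HT29 line between 2.21% and 2.96%.

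Which other genes distinguished G2/M cells was asked first over all cells and then within the Caco-2 line, because the share of lines differed. UMIs were summed over G2/M cells and over the other cells of each library, and the sums were compared by the quasi-likelihood test of edgeR, with the library as a block and p adjusted by Benjamini-Hochberg over all genes tested. The 8 genes of the rule were left out of the test. Over all cells, 2888 of 14086 genes were higher in G2/M cells (20.5%) and 2982 were lower (21.2%), together 41.7%. Within Caco-2-line cells, 2199 of 13549 genes were higher (16.2%) and 2083 lower (15.4%), together 31.6%. Of these, 2184 were higher and 1949 lower in all 3 libraries. Most differences were small: 298 genes passed a log2 fold change of 1 upwards and 334 passed it downwards in the Caco-2 line. Values with "rose by", "fell by" or "changed by" are log2 fold changes in edgeR that passed the adjusted threshold of 0.05. With so many genes called, the count of a list is to be read against these percentages.

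Over all cells, the 12 genes with the largest increase among those that reached 20 CPM in the higher group and moved the same way in all 3 libraries were PIF1, KIF14, CENPA, KIF20A, DEPDC1, BUB1, GTSE1, CENPE, KIF18A, KIF2C, DLGAP5 and CEP55, all but PIF1 and DEPDC1 with known roles in the spindle, the kinetochore, the checkpoint or cytokinesis. PIF1 (ENSG00000140451, chromosome 15, 64815632 to 64825668), a DNA helicase, had the largest increase of these. It was at 45.4, 62.98 and 63.1 CPM in G2/M cells and 2.17, 3.29 and 3.06 CPM in the other cells, a log2 fold change of 4.30 ± 0.12 (SE, adjusted p = 1.26e-74 in edgeR), and at 46.8, 64.5 and 64.1 CPM and 2.47, 3.700 and 3.46 CPM within the Caco-2 line, where the log2 fold change was 4.12. CENPA, the histone H3 variant of centromeres, rose from 5.06, 9.44 and 7.43 CPM to 77.00, 79.6 and 65.2 CPM within the Caco-2 line. The 12 with the largest decrease were SST, FAM3D, LCN2, TSPAN1, VSIG2, SNCG, NUPR1, CEACAM7, LGALS4, KLK11, TM4SF4 and TNFSF10. LGALS4, a lectin of differentiated gut cells, was at 48.2, 100.1 and 68.8 CPM against 371, 461 and 389 CPM and changed by -2.56 in log2 fold change (adjusted p = 0.00483 in edgeR), FAM3D fell by 3.30 and TSPAN1 by 2.87. Of the HT29 genes used to call lines, with cell cycle genes included, 254 of 397 tested were lower in G2/M cells over all cells and 125 of 384 within the Caco-2 line. The part of the share of lines in the change of a single gene over all cells was not tested. The hormone gene SST had no UMI in G2/M cells of any library, and in the other cells it was at 5.67 and 8.74 CPM in the controls and 51.99 CPM in the LPS library. With the level of G2/M cells set to a floor of 3 UMIs over the group, it was 19.3-fold lower over the 2 controls (0.365 against 7.04 CPM) and 71.4-fold lower with the LPS library included (0.272 against 19.4 CPM). The UMIs of the other cells came from 7, 6 and 21 cells, and the highest cell of each library held 81, 131 and 507 UMIs, the last out of 1019. A single such cell among the G2/M cells would outweigh the floor, so these ratios are not lower limits.

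Genes that drive mitotic entry were higher in G2/M cells. Of the 15 genes for CDK1, cyclins and their regulators, 13 were higher and none lower within the Caco-2 line, with a median log2 fold change of 1.85 beside -0.01 over all genes tested, and 14 were higher over all cells. CDK1 itself (ENSG00000170312, chromosome 10, 60778331 to 60794852) was at 563, 639.5 and 636 CPM in Caco-2-line G2/M cells and 77.02, 107 and 111 CPM in the other Caco-2-line cells. Its log2 fold change was 2.59 ± 0.05 (SE, adjusted p = 2.13e-22 in edgeR). CCNB2, encoding cyclin B2, was at 177, 179 and 180.2 CPM against 23.2, 31.6 and 28.3 CPM, a log2 fold change of 2.63, and CCNA2, encoding cyclin A2, which acts from S phase to early mitosis, at 81.3, 97.1 and 94.3 CPM against 11.7, 16.8 and 13.6 CPM. For each of these 3 genes the lowest G2/M value was above the highest value of the other cells. CDKN3, a phosphatase of CDK1, and CKS2, a small CDK-binding protein, rose by 2.26 and 1.85.

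Genes of chromosome structure and the spindle followed. All 19 genes for chromosome condensation and chromatin were higher within the Caco-2 line, with a median of 1.37. NCAPD2, a condensin subunit, was at 176, 192 and 222 CPM in G2/M cells and 35.96, 40.8 and 47.8 CPM in the other cells. The chromatin protein HMGB2 and the importin KPNA2 rose by 2.06 and 2.63, and the histone variant H2AFZ, abundant in all cells, only by 0.77. All 30 spindle and microtubule genes were higher, with a median of 2.56. NUSAP1 (ENSG00000137804, chromosome 15, 41320794 to 41381050), which bundles spindle microtubules, was at 281, 284 and 303 CPM against 35.6, 45.1 and 41.3 CPM, a log2 fold change of 2.77 ± 0.06 (SE, adjusted p = 6.75e-22 in edgeR). HMMR and ASPM, which act at spindle poles, rose by 2.61 and 2.91. The tubulins TUBA1B and TUBB4B, which all cells use, rose by 1.34 and 1.35 from levels of 524 to 623 and 312 to 343 CPM.

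Genes at the centromere and in the checkpoint were higher as well. All 24 centromere and kinetochore genes (median 2.15) and all 16 genes for mitotic kinases and the spindle checkpoint (median 2.36) were higher within the Caco-2 line. AURKA, the kinase of spindle poles, had the second smallest adjusted p of all genes tested. It was at 249, 325 and 294 CPM in G2/M cells and 30.1, 41.9 and 35.4 CPM in the others, a log2 fold change of 2.94 (adjusted p = 4.29e-23, edgeR). AURKB and BIRC5, partners in the chromosomal passenger complex, rose by 2.55 and 2.56, SGO2, which protects centromeric cohesion, by 2.87, and the kinetochore components CENPE and NUF2 by 3.06 and 2.97. BUB1, a checkpoint kinase, rose by 3.18 from 6.29, 7.57 and 7.43 CPM, and its partner BUB3, which also has roles outside mitosis, by 1.39 from 53.4, 59.7 and 58.6 CPM.

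The list of the anaphase promoting complex held mostly smaller changes. Of its 17 genes with securin, 10 were higher and 1 lower within the Caco-2 line, and the median was 0.32. The regulated partners of the complex carried the large changes. PTTG1 (ENSG00000164611, chromosome 5, 160421855 to 160428739), encoding securin, had the smallest adjusted p of all genes tested over all cells and within the Caco-2 line. It was at 482, 529.6 and 467 CPM against 65.2, 75.8 and 67.7 CPM, a log2 fold change of 2.76 ± 0.04 (SE, adjusted p = 7.27e-24 in edgeR). UBE2S, which extends ubiquitin chains on the complex, rose by 2.12, whereas the core subunit ANAPC16 was at 299, 268 and 244 CPM against 232, 233 and 209.6 CPM, a change of 0.20. The ANAPC16 call was lost with sums of thinned UMIs, where the change was 0.17 (adjusted p = 0.106, edgeR). Of 13 cytokinesis genes, 10 were higher and 1 lower, with a median of 2.36. KIF20A, a kinesin of the central spindle, rose by 3.33 and CEP55, which recruits the machinery of abscission, by 3.001, while MYL6, a myosin light chain of all cells, fell by 0.16. The MYL6 call was lost with 20% of cells, where the change was -0.07 (adjusted p = 0.0706, edgeR).

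**Figure D3:**
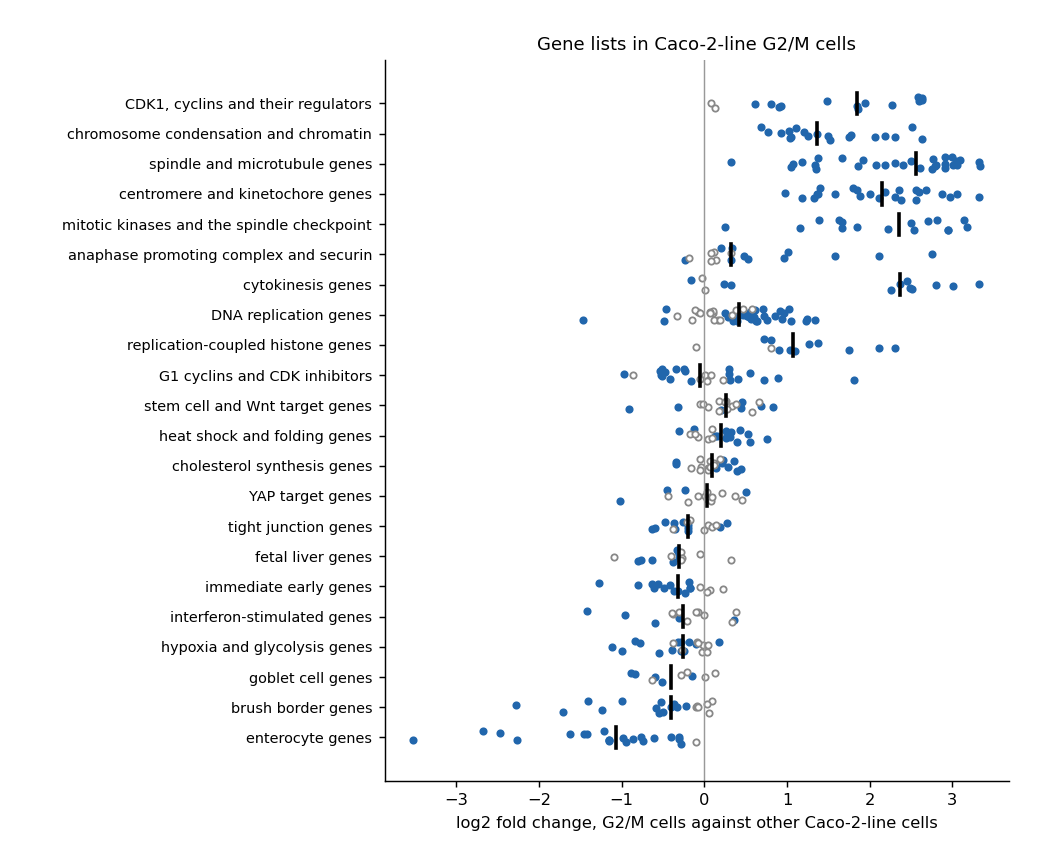
Log2 fold change of each tested gene between G2/M cells and other cells of the Caco-2 line, by gene list, with filled points past an adjusted p of 0.05 in edgeR, open points not past it, and a bar at the median of each list. The lists of mitosis lie at medians of 1.37 to 2.56 apart from that of the anaphase promoting complex at 0.32, and the enterocyte genes at -1.07.

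How G2/M cells stood to S phase was examined with a second rule of the same kind, by which the 10% of cells with the highest UMI share on PCNA, MCM3, MCM5, MCM6, GINS2, HELLS, CLSPN and CDC6 were called S-phase cells. Of 1555 S-phase cells and 1555 G2/M cells, 206 were in both. S-phase cells were 16.7%, 10.2% and 13.0% of the G2/M cells and 9.25%, 9.96% and 9.67% of the other cells. The difference was 3.66 ± 3.63 percentage points (SD, n = 3), with exact permutation p = 0.25, the smallest possible, and in control 2 it was 0.224 points and within the counting error. It turned negative, at -2.68 points, when only the 5% of cells with the highest share were taken as G2/M cells, and was 22.8 points when 20% were taken.

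The S-phase and mitosis genes were also followed along the share itself. Within Caco-2-line cells, the summed level of 58 DNA replication genes was 641, 688 and 713 CPM in cells without a UMI of the 8 genes. It was highest just below the limit, at 2591, 2577 and 2610 CPM in the cells ranked between 10% and 20%. In the 2.5% of cells with the highest share it had fallen to 1505, 1586 and 1684 CPM. The 131 genes of the G2 and mitosis lists rose along the whole range, from 4772, 4710.5 and 4677 CPM without a UMI to 26289, 25762 and 25634 CPM at the top. Replication-coupled histone genes rose between the first bands, from 521, 540 and 518 CPM to 2691, 2521 and 2448 CPM in the cells between 10% and 20%, and stayed between 2180 and 3298 CPM above it. The enterocyte genes fell most between the cells without a UMI, at 20078, 17100 and 16041 CPM, and those ranked between 10% and 20%, at 12352, 9523 and 8543 CPM. These bands were made with the rule and are a description.

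**Figure D4:**
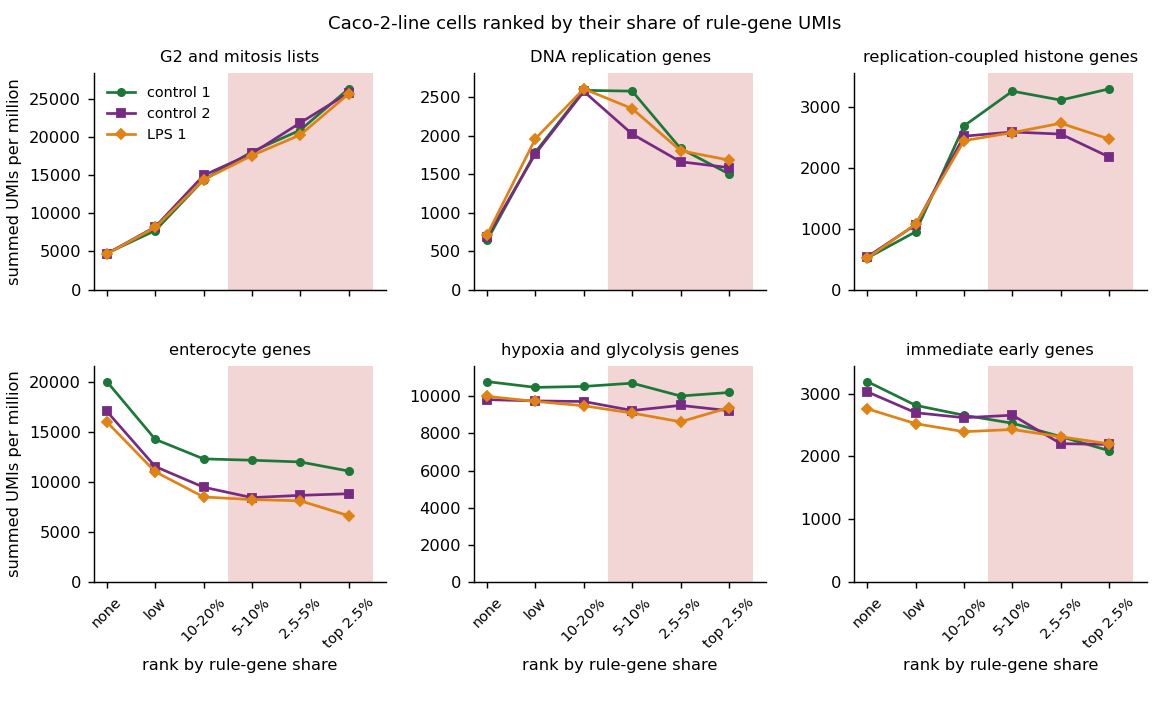
Summed CPM of 6 gene lists in Caco-2-line cells ranked by their share of UMIs on the 8 genes of the rule, from cells with none, through cells with a UMI below the highest 20% (low), to the highest 2.5%; the shaded bands are the G2/M cells and lines stand for the 3 libraries. The DNA replication genes peak between 2577 and 2610 CPM in the cells between 10% and 20%, while the G2 and mitosis lists climb to between 25634 and 26289 CPM.

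Against S-phase cells, with cells in both sets left out so that 1349 remained in each, 1048 of 11142 genes were higher in G2/M cells (9.41%) and 921 lower (8.27%), together 17.7%. The genes of both rules were left out of this test. All 49 DNA replication genes tested were lower in G2/M cells than in S-phase cells, with a median of -1.09, although 30 of 49 were higher and 3 lower than in the other Caco-2-line cells. UNG (ENSG00000076248, chromosome 12, 109097597 to 109126725), which removes uracil from DNA, was at 6.45, 4.56 and 3.600 CPM in G2/M cells and 55.4, 37.9 and 50.4 CPM in S-phase cells, a log2 fold change of -3.21 ± 0.18 (SE, adjusted p = 3.85e-35 in edgeR). The transcription factor E2F1 changed by -2.71, DUT, which keeps dUTP low, by -2.21 and MCM2, part of the replicative helicase, by -2.07. RRM2, a subunit of ribonucleotide reductase, and TYMS, which makes dTMP, were lower than in S-phase cells but higher than in the other Caco-2-line cells. Neither call held under all settings: RRM2 against S-phase cells turned to 0.51 with 20% of cells and lost its call with thinned UMIs, and TYMS within the Caco-2 line was at 0.11 with 5% of cells (adjusted p = 0.355, edgeR). RRM2 was at 50.6, 56.9 and 62.8 CPM against 76.3, 79.3 and 88.5 CPM in S-phase cells, and within the Caco-2 line it was 1.33 higher in G2/M cells than in the others. TYMS changed by -0.94 against S-phase cells and by 0.62 against the others of the Caco-2 line. Of the helicase and clamp genes within the Caco-2 line, MCM5 fell by 0.70, but was at -0.11 with 20% of cells (adjusted p = 0.426, edgeR) and lost its call with sums of thinned UMIs, and PCNA was at 66.5, 44.8 and 56.6 CPM against 45.9, 47.1 and 52.3 CPM, with a log2 fold change of 0.16 and an adjusted p of 0.187 in edgeR. The sign and the call of PCNA moved with the share of cells taken, to -0.39 with 5% (adjusted p = 0.00429, edgeR) and 0.84 with 20% (adjusted p = 2.59e-14, edgeR). PCNA was among the 8 genes of the S-phase rule, of which 3 were higher and 1 lower within the Caco-2 line.

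Mitotic genes separated the 2 sets in the other direction. Of the 130 G2 and mitosis genes tested, 98 were higher and 8 lower in G2/M cells than in S-phase cells. PTTG1 was at 539, 567 and 505 CPM against 59.9, 83.6 and 76.7 CPM, a log2 fold change of 2.91, and PIF1 changed by 3.96. CDK1 and CCNA2, which are made from S phase on, changed less, by 1.30 and 1.61. Replication-coupled histone genes, whose RNA is known to peak in S phase and to lack a poly(A) tail for the most part, were not lower in G2/M cells: 7 of 11 were higher, and none lower, with a median of 0.49. HIST1H4C, the most abundant of them, was at 2650.5, 2090.1 and 2109 CPM in G2/M cells and 1451, 1477 and 1303 CPM in S-phase cells, a log2 fold change of 0.72 (adjusted p = 5.93e-09, edgeR), and HIST1H3B changed by 1.02. Within the Caco-2 line 10 of 12 were higher in G2/M cells than in the others, and HIST1H3G rose by 2.12. The library preparation captures poly(A) RNA, so these values count only histone RNA that was primed by it. Of 22 hypoxia and glycolysis genes, 14 were higher and none lower in G2/M than in S-phase cells, among them LDHA, the lactate dehydrogenase, by 0.49 and PGK1, a glycolytic kinase, by 0.43.

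Genes of absorptive cells were lower in G2/M cells. Within the Caco-2 line, 21 of 22 enterocyte genes were lower and none higher, with a median of -1.07, and 13 of 19 brush border genes were lower and none higher, with a median of -0.40. APOB (ENSG00000084674, chromosome 2, 21001429 to 21044073), the structural protein of chylomicrons, was at 260.3, 176 and 229 CPM in G2/M cells and 529, 400.2 and 543 CPM in the other Caco-2-line cells. Its log2 fold change was -1.21 ± 0.04 (SE, adjusted p = 3.73e-17 in edgeR), and the groups did not overlap. FABP1, a fatty acid carrier, was at 2002, 1697 and 1473 CPM against 2752, 2455 and 2300.5 CPM, and fell by 0.61. APOA4, an apolipoprotein of lipid uptake, fell by 2.68, from 1738, 1338 and 1519.7 CPM to 381, 145 and 248 CPM (adjusted p = 0.0242, edgeR). This call was lost without control 1, where the change was -2.96 (adjusted p = 0.1045, edgeR). APOA1, the most abundant enterocyte gene, changed by only -0.31. The receptor gene CUBN had the largest change among brush border genes at -2.27, the actin-bundling VIL1 changed by -0.33, and EZR was at 163, 168 and 146 CPM against 147, 141 and 139 CPM and was not past the threshold. Against S-phase cells, 6 of 19 enterocyte genes tested were higher and 3 lower, with FABP1 at 0.31 and APOB at -0.33. Of 19 brush border genes, 1 was higher than in S-phase cells and none lower, with a median of 0.07. The FABP1 call was lost with DESeq2 at 0.30 (adjusted p = 0.123) and with ranking on thinned UMIs at 0.08 (adjusted p = 0.295, edgeR). Without the library as a block the FABP1 and APOB calls were lost, at 0.32 and -0.33 (adjusted p = 0.188 and 0.235, edgeR).

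Within the Caco-2 line, fetal liver and hypoxia genes moved in the same direction as enterocyte genes. Of 15 fetal liver genes, 5 were lower and 2 higher over all cells, with a median of -0.08. Within the Caco-2 line 8 were lower and none higher, including the secreted proteins VTN (-0.80) and TTR (-0.64). Of 22 hypoxia and glycolysis genes, 12 were lower and 1 higher, with a median of -0.26. NDRG1, a gene induced by low oxygen, was at 126, 113 and 137 CPM against 229, 219 and 269 CPM and fell by 1.002, and GAPDH, a glycolytic enzyme, changed by -0.24. Over all cells 18 of the 22 were lower and 2 higher, and NDRG1 changed by -1.54. Immediate early genes, which answer growth signals and stress within minutes, were lower as well: 13 of 17 were lower and none higher within the Caco-2 line. DUSP1, a phosphatase of MAP kinases, was at 119, 108 and 99.5 CPM against 186, 154 and 132 CPM and fell by 0.61, and FOS fell by 0.32. Of 18 tight junction genes, 9 were lower and 2 higher, with CLDN3 at -0.47. Against S-phase cells, 2 of 16 tight junction genes were higher and none lower. In that comparison 5 of 13 fetal liver genes and 4 of 16 immediate early genes were lower, and none of either list higher.

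Interferon-stimulated and goblet cell genes were lower over all cells and less so within the Caco-2 line. Over all cells, 14 of 18 interferon-stimulated genes were lower and none higher, with a median of -1.15, and 10 of 12 goblet cell genes were lower, with a median of -0.74. Within the Caco-2 line, 5 of 10 goblet cell genes were lower, with a median of -0.40, and 4 of 14 interferon-stimulated genes were lower and 1 higher, with a median of -0.26. The difference between both sets of cells was not tested. Against S-phase cells, 4 of 11 interferon-stimulated genes were higher and none lower, with a median of 0.31. Of 9 goblet cell genes, 1 was higher than in S-phase cells and 2 were lower. IFI27 was at 67.7, 132 and 116 CPM against 228, 288 and 317 CPM over all cells, a log2 fold change of -1.46, and at 46.4, 71.8 and 45.99 CPM against 76.4, 89.4 and 67.1 CPM within the Caco-2 line, a log2 fold change of -0.59. The IFI27 call was lost over all cells with 5% of cells, where the change was -1.74 (adjusted p = 0.0907, edgeR). Within the Caco-2 line it was lost with 20%, where the change was -0.17 (adjusted p = 0.0536, edgeR). IFI6 changed by -1.20 over all cells, and MUC2, the main mucin of goblet cells, by -2.08. MUC2 was at 1.31, 0.5501 and 2.84 CPM in G2/M cells, and with sums of thinned UMIs its change was -0.49 and no longer called (adjusted p = 0.552, edgeR). The summed level of the interferon-stimulated genes in G2/M cells was 404, 575 and 549 CPM against 769, 889 and 1085 CPM in the other cells. Markers of cell types outside both lines were low. Of 12 genes for stromal, immune and endothelial cells, PTPRC, DCN and CDH5 had no UMI in G2/M cells, and the summed level of the list was 107, 129 and 109 CPM against 274, 306 and 303 CPM, most of it LYZ, which epithelial cells can also make.

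Folding, stem cell and cell cycle exit genes were examined next. Of 20 heat shock and folding genes, 11 were higher and 7 lower over all cells. In the HT29 line 3 were higher and 4 lower. Against S-phase cells, 2 of the 20 were higher and 1 lower, with a median of 0.09. Within the Caco-2 line 12 were higher and 2 lower. HSP90B1, a chaperone of the endoplasmic reticulum, was at 891, 993 and 1059 CPM against 514, 543 and 597 CPM, a log2 fold change of 0.76 (adjusted p = 1.17e-15, edgeR), and was also higher than in S-phase cells, by 0.64. The mitochondrial chaperone HSPD1 rose by 0.32. Of 19 stem cell and Wnt target genes, 5 were higher and 2 lower. ASCL2, a transcription factor of crypt base cells, was at 101, 79.4 and 66.7 CPM against 67.5, 54.2 and 50.7 CPM and rose by 0.45. LGR5 rose by 0.83 from 5.19, 3.42 and 4.42 CPM only. It was not past the threshold with DESeq2 at 0.82 (adjusted p = 0.0643) or without control 1 at 0.73 (adjusted p = 0.0502, edgeR). With sums of thinned UMIs its change was 0.43 and not called either (adjusted p = 0.632, edgeR). Of 25 G1 cyclins and CDK inhibitors, 8 were higher and 11 lower. The inhibitors moved apart: CDKN1A, encoding p21, was at 16.9, 20.3 and 25.6 CPM against 33.9, 38.9 and 42.6 CPM and fell by 0.97, whereas CDKN1B, encoding p27, was at 76.8, 81.4 and 93.9 CPM against 45.8, 49.4 and 48.8 CPM and rose by 0.73 (adjusted p = 5.42e-09, edgeR). Of 20 cholesterol synthesis genes, 7 were higher and 2 lower, and of 15 YAP target genes, 1 was higher and 3 lower. Of 5 trophoblast genes tested none was called, and of 6 enteroendocrine genes 3 were lower, SST among them, and of 13 NF-kB target genes 2 were lower. The splits differed in other sets of cells. Of the cholesterol synthesis genes, 6 were higher and 4 lower over all cells, and 5 were lower and none higher in the HT29 line. Of the YAP target genes, 3 were higher and 1 lower over all cells. There, 7 of 14 NF-kB target genes and 6 of 10 enteroendocrine genes were lower and none higher. Of 5 trophoblast genes, 2 were higher and 1 lower over all cells.

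The few HT29-line G2/M cells were examined on their own. They were 16, 30 and 19 cells with 138426, 170360 and 133966 UMIs, so that 1 UMI was worth 7.22, 5.87 and 7.46 CPM. Of 10083 genes tested within the HT29 line, 455 were higher (4.51%) and 415 lower (4.12%), together 8.63%. The count was 524 without control 1 and 338 without control 2, and DESeq2 called 303 genes higher and 90 lower. The G2 and mitosis lists were again higher, with 108 of 129 called and none lower (63 of 86 tested with sums of thinned UMIs), and their median log2 fold change was 3.32, beside -0.13 over all genes tested. NUSAP1 was at 773, 652 and 589.7 CPM in HT29-line G2/M cells and 12.7, 9.46 and 13.95 CPM in the other HT29-line cells, a log2 fold change of 5.65 ± 0.19 (SE, adjusted p = 3.32e-182 in edgeR). PIMREG, a mitotic regulator, changed by 6.42 and AURKB by 5.46. Immediate early genes were lower in 7 of 16 cases, DUSP1 by 1.18, and so was CDKN1A, by 0.97. FCGBP, a mucus protein, fell by 1.48 as the 1 goblet cell gene called of 11 tested. The CDKN1A call was lost without control 2 at -1.04 (adjusted p = 0.0888, edgeR) and with DESeq2 at -0.92 (adjusted p = 0.0538). The FCGBP call was lost with 5% of cells, where the change was -0.82 (adjusted p = 0.169, edgeR). With sums of thinned UMIs the DUSP1 and FCGBP calls were lost, at -0.94 and -1.12 (adjusted p = 0.1395 and 0.252, edgeR).

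The difference between the lines was then tested directly, as the interaction of line and group. The difference of log2 fold changes, HT29 line minus Caco-2 line, was positive for 255 of 12692 genes and negative for 105, together 2.84%. Of the 131 G2 and mitosis genes it was positive for 85 and negative for none. With sums of thinned UMIs it was positive for 24 of the 129 tested, and over all genes 36 differences were then positive and 85 negative. Genes differed in whether the lines stood apart in the G2/M cells, in the other cells or in both. In G2/M cells CDK1 was at 563, 639.5 and 636 CPM in the Caco-2 line and 484, 487 and 381 CPM in the HT29 line, and in the other cells at 77.02, 107 and 111 CPM and 7.72, 12.8 and 18.7 CPM, so that for CDK1 the lines differed more in their other cells. The difference of log2 fold changes was 2.44 ± 0.18 (SE, adjusted p = 9.26e-36 in edgeR). TUBA1B was at 1634, 1444 and 1518 CPM in Caco-2-line and 1387, 1303 and 1426 CPM in HT29-line G2/M cells, and in the other HT29-line cells at 224, 187 and 225 CPM, below the 524 to 623 CPM of the other Caco-2-line cells. For NUSAP1, PIMREG and CCNB2, HT29-line G2/M cells were above the Caco-2-line ones in every library. NUSAP1 was at 281, 284 and 303 CPM in Caco-2-line G2/M cells. PIMREG was at 65.02, 70.4 and 74.6 CPM in HT29-line and 8.68, 16.6 and 16.96 CPM in Caco-2-line G2/M cells, and CCNB2, a mitotic cyclin, at 354, 505 and 284 CPM and 177, 179 and 180.2 CPM. H2AFZ (ENSG00000164032, chromosome 4, 99948086 to 99950355) was at 2080.5, 1655 and 1553 CPM in HT29-line and 655, 528 and 486 CPM in Caco-2-line G2/M cells, with a difference of 1.02. With sums of thinned UMIs the H2AFZ difference was 0.54 and no longer called (adjusted p = 0.0517, edgeR), and the PIMREG call was lost as well (adjusted p = 0.135, edgeR).

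Pooled over the cells of a group, the share of UMIs on the 8 rule genes was 0.459%, 0.544% and 0.513% in HT29-line G2/M cells and 0.420%, 0.493% and 0.444% in Caco-2-line ones. In the other cells the pooled share was 0.0112%, 0.0109% and 0.0125% in the HT29 line and 0.0365%, 0.0518% and 0.0461% in the Caco-2 line. The median over G2/M cells was 0.379%, 0.393% and 0.458% in the HT29 line and 0.362%, 0.431% and 0.389% in the Caco-2 line. In control 2 the median was thus lower in the HT29 line, while the pooled share was higher. The part of this share in the interaction was not tested. The balance of directions over all genes moved with the settings. The number of negative differences went from 105 to 281 without control 1 and to 581 when 20% of the cells were taken, with 149 and 249 positive ones. Without the filter on low counts 165 were positive and 389 negative, and without a minimum posterior 189 and 417. Among the G2 and mitosis genes these 4 settings gave 71, 62, 71 and 72 positive differences, and 1 negative one with 20% of cells. DESeq2 called 256 positive and 31 negative differences, and without control 2 edgeR called 144 and 48. SCD, a fatty acid desaturase named after its values were seen, was at 867, 1403 and 1777 CPM in HT29-line G2/M cells and 2499.6, 3610.0 and 3472 CPM in the other HT29-line cells. In the Caco-2 line it was at 692, 889.8 and 1053 CPM and 685, 894 and 1107 CPM, and the difference was -1.30 (adjusted p = 2.07e-34, edgeR).

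**Figure D5:**
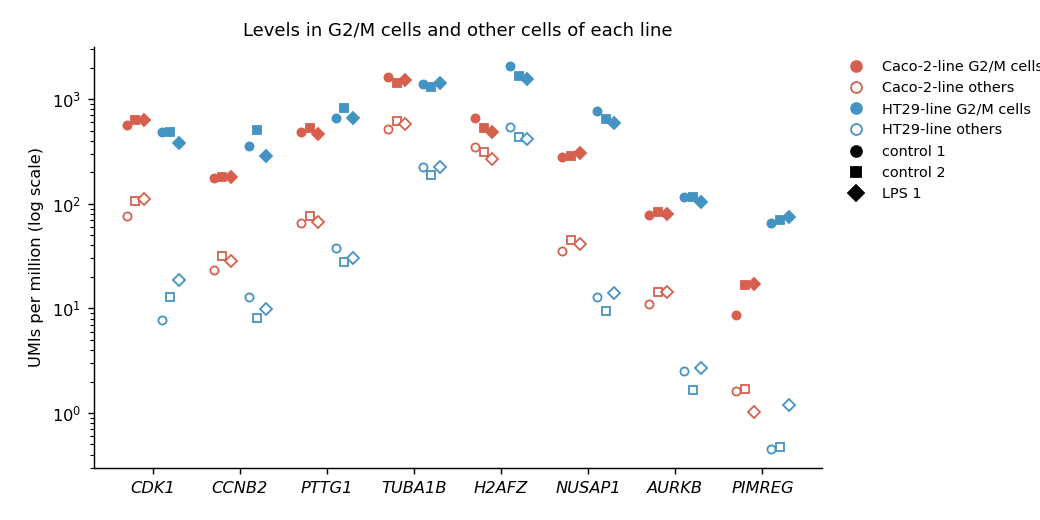
CPM on a log axis for 8 genes in G2/M cells (filled) and other cells (open) of the Caco-2 line and the HT29 line, with a symbol shape for each library. For all genes but H2AFZ the other HT29-line cells lie below the other Caco-2-line cells in at least 2 of 3 libraries, and NUSAP1, H2AFZ, CCNB2, PTTG1, AURKB and PIMREG reach higher levels in HT29-line than in Caco-2-line G2/M cells.

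The effect of LPS on G2/M cells was compared between 1 LPS library and 2 controls. With 1 residual degree of freedom, the test takes the lone LPS library to vary as the controls do, and treatment and library cannot be told apart. Of 12102 genes, 10 were called by edgeR (0.0826%), 4 higher and 6 lower, and none by DESeq2, while 674 and 38 had an unadjusted p under 0.05. None of the 131 G2 and mitosis genes was called by either tool, 5 had an unadjusted p under 0.05 in edgeR, and their median log2 fold change was -0.04 beside 0.00 over all genes tested. REG3A (ENSG00000172016, chromosome 2, 79157003 to 79159753), an antimicrobial lectin, had the largest increase of the 10 called genes. It was at 0.437 and 2.48 CPM in the controls and 27.3 CPM in the LPS library, a log2 fold change of 4.25 (adjusted p = 4.28e-20, edgeR). Only 4 G2/M cells of the LPS library held its 77 UMIs, and 1 of them held 40, so the value rests on few cells.

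PLA2G2A, a secreted phospholipase, was at 60.5 and 53.4 CPM in the controls and 135 CPM with LPS, from 59, 56 and 52 cells, a change of 1.19 (adjusted p = 1.27e-07, edgeR). DKK1, a Wnt inhibitor, was at 55.2 and 76.5 CPM and 125 CPM, and LRRC75A at 36.01 and 56.1 CPM and 102 CPM. WFDC2, a protease inhibitor of epithelia, was lower with LPS, at 32.6 CPM against 77.0 and 87.7 CPM, FGG changed by -0.86 and TSPAN8 by -0.82. XAGE3, FABP7 and PTN, all under 20 CPM in each library and named after their values were seen, were called lower too. A test of whether the difference between G2/M cells and other cells changed with LPS called 10 of 15130 genes by edgeR (0.0661%) and 1 by DESeq2. DKK1 was at 61.0, 49.96 and 45.7 CPM in the other cells, with a difference of effects of 1.23. AFP, a fetal liver protein, was at 362, 254 and 199 CPM in G2/M cells and 312, 197 and 333 CPM in the other cells, and the difference was -1.02 (adjusted p = 5.26e-16, edgeR). ALB had a difference of 0.44, only just past the threshold. In G2/M cells of the LPS library 1 cell held 226 of its 1007 UMIs. Without that cell the ALB level there went from 357 to 277 CPM, beside 292 CPM in the other cells of this library. With each cell thinned to 1500 UMIs, the calls for REG3A, PLA2G2A, DKK1, WFDC2, FGG and TSPAN8 were lost and that of LRRC75A was kept for the LPS effect, and of the genes given here for the difference of effects AFP kept its call and DKK1 and ALB lost theirs. The LPS effect on PLA2G2A was then 0.59. With 5% of cells, the LPS effect on DKK1 was 0.016 and its difference of effects 0.13, and both calls were lost. The LPS calls of PLA2G2A, LRRC75A, FGG and TSPAN8 were lost there too, at 0.86, 1.12, -0.77 and -0.73. DKK1 also lost its LPS call with 20% of cells, and FGG and TSPAN8 lost theirs with at least 2000 UMIs and 800 genes per cell. With ranking on thinned UMIs the LPS calls of PLA2G2A, FGG and TSPAN8 were lost, at 0.70, -0.70 and -0.70.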

How the data were processed

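The authors deposited unnormalized UMI counts per gene and barcode for each library, made with Cell Ranger on GRCh38. The barcodes were those called as cells, before the cell filters of the study. Total depth was 33893707, 27934953 and 24185467 UMIs in control 1, control 2 and the LPS library. The G2/M cells and all gene lists were chosen with earlier results of these data known.

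Cells with at least 1500 UMIs, at least 700 genes and at most 20% mitochondrial UMIs were kept (5093, 5307 and 5160 cells). Lines were called with a Gaussian mixture (scikit-learn 1.9.0, posterior of at least 0.9) on the ratio of UMI shares of 733 Caco-2 and 393 HT29 genes, which the study took from bulk data of both lines. UMIs were summed per library and cell set and tested with edgeR 4.0.16 in R 4.3.3 (quasi-likelihood F test, TMM, filterByExpr, library as a block, which pairs both sums of a library; for the lines, library by line), with Benjamini-Hochberg adjustment at 0.05. Standard errors were derived from the F statistic. CPM used the summed UMIs. Doublet scores came from Scrublet in scanpy 1.11.5, shares were tested by exact sign-flip over libraries (Python 3.11.15), and positions are those of GENCODE on GRCh38.

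Named genes were the 12 largest changes in each direction over all cells (at least 20 CPM, same direction in 3 libraries), in each list up to 5 with the smallest adjusted p and 3 with the highest CPM, and up to 8 of the largest changes in other comparisons (at least 20 CPM in the higher group). A gene named in 1 comparison may be given in others, and any other gene was chosen after its values were seen. Alternatives were RLE size factors, DESeq2 1.42.0, no filter on low counts, doublets left out (the 6% highest scores), 5% or 20% of cells, 2000 UMIs and 800 genes, thinning to 1500 UMIs, no block, no minimum posterior, and each library left out. The tests were checked on simulated data in which 200 genes had known changes. Of these, 85.0% were recovered over all cells, 91.0% within the Caco-2 line and 89.5% against S-phase cells. Recovery was 41.0% in the HT29 line, 37.0% for the difference between the lines, and 56.5% and 57.5% for the LPS effect and its difference. False calls made up between 0.0% and 6.61% of the calls.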

Additional observations from a re-analysis of the deposited data

Results flagged for a closer look

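The G2/M effect differed between the lines, by the interaction test in edgeR, for 9 of the genes given above. The difference of log2 fold changes, HT29 line minus Caco-2 line, was 2.93 for NUSAP1, 2.96 for AURKB, 2.44 for CDK1, 2.47 for CCNB2, 1.60 for PTTG1, 3.44 for PIMREG, 1.02 for H2AFZ and 1.23 for TUBA1B. SCD was the exception in direction, at -1.30. With sums of thinned UMIs H2AFZ and PIMREG lost their calls (adjusted p = 0.0517 and 0.135, edgeR). The HT29-line values rest on 16, 30 and 19 cells. PIMREG was at 0.454, 0.473 and 1.19 CPM in the other HT29-line cells, so the size of its difference is not exact.

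The interaction test of the G2/M effect with LPS, with 1 residual degree of freedom and 1 LPS library, called 10 genes in edgeR, of which 7 reached 20 CPM. The difference was 4.85 for REG3A, 1.23 for DKK1, 1.09 for PLA2G2A, 1.05 for SLPI, a protease inhibitor, and 0.44 for ALB, and it was -1.02 for AFP and -0.81 for WFDC2. REG3A rested on 4 cells of the LPS library, and 1 of its G2/M cells held 226 of their 1007 ALB UMIs. All of these calls but that of AFP were lost with DESeq2 (adjusted p from 0.121 for REG3A to 0.9999) and with sums of thinned UMIs. With 5% of cells DKK1, PLA2G2A, WFDC2 and SLPI were lost, with 20% DKK1, SLPI and ALB, and with ranking on thinned UMIs PLA2G2A, WFDC2 and SLPI. SLPI was also lost with doublets left out, ALB without the filter on low counts, and WFDC2 with at least 2000 UMIs and 800 genes per cell.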

How the results depend on the processing

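The alternatives were run for the 7 comparisons between sums of cells and, where they applied, for both shares, except that the minimum posterior was dropped only for the difference between the lines and the share of HT29-line cells, not for the comparisons within a line, and that the difference of the LPS effect was not fitted without its block (the LPS effect has none). With DESeq2 the number of genes called was 3256 over all cells, 2098 within the Caco-2 line, 393 within the HT29 line, 477 against S-phase cells, and 0 and 1 for the LPS effect and its difference. With sums of thinned UMIs it was 2729, 1869, 288 and 656, then 3 and 1, and 121 for the difference between the lines, where fewer UMIs entered the tests. Without the replicate block it was 3418 over all cells, 1825 within the Caco-2 line, 637 against S-phase cells and 176 between the lines. Taking 5% of cells gave 549 genes in the HT29 line, 211 between the lines, and 2 and 5 for LPS, and taking 20% gave 830 between the lines and 26 for LPS in G2/M cells. The difference between the lines also moved to 554 genes without the filter on low counts and 606 without a minimum posterior. Ranking on thinned UMIs gave 1115 genes against S-phase cells. The cause of these changes in number was not tested.

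Leaving out 1 library gave 4651 to 5041 genes over all cells, 3196 to 3634 in the Caco-2 line, 338 to 617 in the HT29 line (524 without control 1, 338 without control 2), 192 to 430 between the lines and 1352 to 1541 against S-phase cells. The difference in the share of HT29-line cells ranged from -14.85 to -13.43 points without 1 library and was -15.96 when 20% of cells were taken. That in the share of S-phase cells ranged from 1.77 to 5.38 points, was 22.84 with 20% and turned to -2.676 with 5%. The difference of the LPS effect pairs both sums of each library. For the LPS effect in G2/M cells no paired fit could be made, since LPS and control are separate libraries. With 1 LPS library and 2 controls, leaving out any library leaves either LPS comparison without residual degrees of freedom or without LPS.

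Of 1421 values for 113 gene results, 1331 kept direction and call, 85 lost the call, 2 gained it and 3 reversed. PCNA within the Caco-2 line turned to -0.39 with 5% of cells, was 0.84 with 20%, and ranged from -0.0513 (without control 1) to 0.287 (without control 2, where it was called) without 1 library, and RRM2 against S-phase cells turned to 0.51 with 20% of cells. HIST1H4C and APOA4 within the Caco-2 line lost their calls without the filter on low counts, at changes of 1.35 and -2.71 (adjusted p = 0.0597 and 0.0585, edgeR). Without the replicate block ANAPC16, MYL6, APOA1, VIL1, ASCL2, GAPDH, FOS and HSPD1 within the Caco-2 line and SCD between the lines lost their calls. Their values were then 0.20, -0.16, -0.30, -0.33, 0.46, -0.24, -0.33, 0.32 and -1.28 in this order. All LPS calls given above except AFP in the difference of effects were lost with DESeq2. The HT29-line values are limited by their 16, 30 and 19 cells.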

Other observations

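Ribosomal protein genes were lower in G2/M cells by small amounts. Within the Caco-2 line 69 of 88 tested were lower and 3 higher, with a median log2 fold change of -0.21 beside -0.01 over all genes tested, and over all cells 50 were lower and 6 higher, with a median of -0.08. Against S-phase cells 6 of 87 were lower and 3 higher, with a median of -0.01. Of the 13 genes encoded by mitochondrial DNA, 8 were lower and 1 higher within the Caco-2 line, with a median of -0.07, whereas over all cells 4 were lower and 4 higher, with a median of 0.06. Of these genes, 11 were lower than in S-phase cells, with a median of -0.21.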
